A study of Mus musculus with 48 samples.

Results

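Inflammatory chemokines are small secreted proteins that draw leukocytes into a tissue, and they were followed here in the stromal cells of mouse lymph nodes (LNs). They were chosen by gene symbol as a group of 10, namely *Cxcl1*, *Cxcl2*, *Cxcl5*, *Cxcl9*, *Cxcl10*, *Ccl2*, *Ccl5*, *Ccl7*, *Ccl11* and *Ccl20*. Of these, 9 had a named probe and were measured among 13353 genes, and *Cxcl5* had no named probe and was not analysed here. RNA of sorted cells was hybridised to Illumina bead arrays, on which beads carrying a gene-specific probe bind labelled RNA and their fluorescence is read. The cells were fibroblastic reticular cells (FRCs, gp38+CD31-), blood endothelial cells (BECs, CD31+gp38-), lymphatic endothelial cells (LECs, CD31+gp38+) and double-negative cells (DNs, which carry neither marker). gp38 is the product of *Pdpn* and CD31 that of *Pecam1*. Each cell type came from naive wild-type mice and from mice that had been given 200000 to 400000 Eμ-*Myc* lymphoma cells intravenously, a B cell lymphoma driven by a *Myc* transgene under an immunoglobulin enhancer, and in which tumor cells made up 4 to 10% of lymphocytes. Each of the 8 groups held 3 replicates, each replicate pooled RNA from 4 to 6 sorts, and each was read on 2 strips that were averaged. The age of the mice is not given in the labels.

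Chemokines are grouped by the spacing of their first cysteines into CXC and CC families, and they act through receptors on leukocytes. *Cxcl1*, *Cxcl2* and *Cxcl5* attract neutrophils through Cxcr2. *Cxcl9* and *Cxcl10* are interferon-induced and attract T and NK cells through Cxcr3. *Ccl2* and *Ccl7* attract monocytes through Ccr2, *Ccl11* attracts eosinophils through Ccr3, *Ccl5* attracts T cells and monocytes, and *Ccl20* is the ligand of Ccr6. NF-kappaB, a transcription factor that responds to tumor necrosis factor, interleukin 1 and microbial products, is a known inducer of many of them. In LNs, chemokines made by stroma and endothelium can also be displayed on vessel walls, where passing lymphocytes meet them.

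Several members lie side by side in the mouse genome. On chromosome 5, no protein-coding gene lies between *Cxcl1* and *Cxcl2*, and 1 lies between *Cxcl9* and *Cxcl10*. On chromosome 11, *Ccl2*, *Ccl7* and *Ccl11* follow each other directly, with *Ccl5* after 28 further genes, and *Ccl20* stands alone on chromosome 1. Promoter sequences of RefSeq (GRCm38.p6), from 250 bases before to 50 bases after the start site, were found for 5 members and are shown because they let the NF-kappaB and interferon motifs of the family be seen beside its levels. Capitals mark matches on either strand to the NF-kappaB consensus, to GAAANNGAA (an interferon response core), to TGANTCA (an AP-1 site) or to TATAAA.
Cxcl1, chr5:90890995-90891294, + strand: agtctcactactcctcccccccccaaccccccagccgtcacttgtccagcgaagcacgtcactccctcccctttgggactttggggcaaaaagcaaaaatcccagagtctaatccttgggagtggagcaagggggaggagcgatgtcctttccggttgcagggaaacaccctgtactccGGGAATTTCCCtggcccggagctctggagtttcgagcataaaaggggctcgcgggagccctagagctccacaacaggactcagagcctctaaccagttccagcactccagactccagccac
Cxcl2, chr5:90903649-90903948, + strand: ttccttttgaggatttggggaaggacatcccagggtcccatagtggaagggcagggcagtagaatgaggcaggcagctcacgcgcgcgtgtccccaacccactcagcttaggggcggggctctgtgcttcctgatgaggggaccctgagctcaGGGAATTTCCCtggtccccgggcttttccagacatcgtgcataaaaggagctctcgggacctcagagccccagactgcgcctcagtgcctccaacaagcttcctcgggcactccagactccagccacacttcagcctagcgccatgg
Cxcl9, chr5:92328030-92328329, - strand: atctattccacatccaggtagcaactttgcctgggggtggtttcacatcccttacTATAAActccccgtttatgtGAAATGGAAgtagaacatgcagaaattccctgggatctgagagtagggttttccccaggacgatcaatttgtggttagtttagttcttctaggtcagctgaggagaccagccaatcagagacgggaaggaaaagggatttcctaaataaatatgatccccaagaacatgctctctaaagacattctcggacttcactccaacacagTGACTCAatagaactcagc
Cxcl10, chr5:92348840-92349139, - strand: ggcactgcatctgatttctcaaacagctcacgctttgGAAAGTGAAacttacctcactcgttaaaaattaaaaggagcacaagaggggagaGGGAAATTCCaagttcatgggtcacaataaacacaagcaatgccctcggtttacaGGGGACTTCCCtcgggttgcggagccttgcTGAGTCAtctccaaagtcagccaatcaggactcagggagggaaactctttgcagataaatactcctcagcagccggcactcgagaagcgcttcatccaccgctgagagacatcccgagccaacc
Ccl20, chr1:83116516-83116815, + strand: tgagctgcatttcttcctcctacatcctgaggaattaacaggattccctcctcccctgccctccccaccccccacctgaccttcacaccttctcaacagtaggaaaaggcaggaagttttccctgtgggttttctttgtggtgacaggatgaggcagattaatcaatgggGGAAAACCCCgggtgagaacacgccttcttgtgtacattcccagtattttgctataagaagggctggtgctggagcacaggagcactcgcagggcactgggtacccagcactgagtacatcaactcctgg

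The neighbours *Cxcl1* and *Cxcl2* held the same match to the NF-kappaB consensus, GGGAATTTCC, at positions -71 to -62 and -97 to -88 from the start site, and it also matched on the other strand 1 base further on. *Cxcl10* held the consensus at -159 to -150 and at -104 to -95 (overlapped by a match on the other strand), GAAAGTGAA at -213 to -205 and TGAGTCA at -74 to -68. *Cxcl9* held GAAATGGAA at -175 to -167 and TGACTCA at 32 to 38, with no NF-kappaB match in these letters, and *Ccl20* held 1 NF-kappaB match at -80 to -71. Of 32851 promoters of this length, 8.46% held the NF-kappaB consensus, 8.56% GAAANNGAA, 7.81% TGANTCA and 13.6% TATAAA. A match is a description of the letters and does not show binding.

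The arrays were of even depth, with 863780 to 1044181 beads per strip and a median of 18 to 22 beads per probe code. Levels are log2 signals. They were called above background over 5.57, and comparisons of levels are made between cells for 1 probe and never between probes. Defining markers went with the labels of most libraries: *Pdpn* lay at 14.31 to 14.87 in FRCs, *Pecam1* at 14.18 to 14.88 in BECs, and *Prox1*, the lymphatic fate factor, at 12.61 to 13.37 in LECs. *Itga7*, a pericyte integrin, lay at 9.31 to 10.5 in DNs. The library labelled DN naive replicate 2 stood apart. Its *Pdpn* level was 13.43 against 10.56 and 9.75 in the other DN naive replicates, its FRC marker mean was 12.87 against 10.43 and 10.36, and it correlated at 0.935 to 0.942 with the FRC naive libraries and at 0.926 to 0.928 with its own group. Its pericyte marker mean was 11.43 against 10.81 and 10.98. Markers of further cell types were higher in it too. Its lymphatic endothelial marker mean was 9.243 against 7.342 and 7.251, and its blood endothelial mean 9.364 against 8.496 and 7.578. Its myeloid marker mean was 8.237 against 6.893 and 7.051. Its leukocyte (8.204), T and NK cell (5.712) and B cell (6.232) marker means were not the highest of the DN naive replicates. Its highest correlation, 0.95, was with DN tumor replicate 3, which carried FRC markers too (*Pdpn* 12.38 against 10.39 and 11.1 in the other DN tumor replicates, FRC marker mean 12.05 against 10.31 and 10.61). The counts of members called are given with and without it in each comparison, as are single values of members whose call changed. Folds and directions that changed without it are given only in part.

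Leukocyte marker means were higher in every tumor library than in the naive libraries of its cell type, except in BEC tumor replicate 3. The mean of 9 leukocyte markers was 10.39 and 11.37 in BEC tumor replicates 1 and 2 against 8.44 to 8.81 in BEC naive libraries, and 12.09 and 11.41 in DN tumor replicates 1 and 2 against 8.18 to 8.42 in DN naive libraries. FRC tumor replicates 1 to 3 lay at 7.45, 7.42 and 8.87 against 6.54 to 7.05 in FRC naive libraries. LEC tumor replicates 1 to 3 lay at 8.124, 9.03 and 8.493 against 7.644 to 8.116 in LEC naive libraries. DN tumor replicate 3 lay at 9.06 and BEC tumor replicate 3 at 8.504. Among BECs, B cell marker means were highest in tumor replicates 1 and 2 (9.02 and 10.2), and among DNs likewise (10.85 and 10.57). Among FRCs tumor replicate 3 was highest (7.28), and among LECs tumor replicate 2 (7.77). *Ptprc*, which encodes the leukocyte antigen CD45 used in the depletion, was not above background on average in any group. FRC markers were also higher in BEC tumor replicates 2 and 3 (means 10.38 and 10.1) than in the BEC naive libraries (8.33 to 9.36), and blood endothelial markers were higher in DN tumor libraries (10.27 to 10.53) than in DN naive libraries (7.58 to 9.36). Pericyte and smooth muscle markers moved with tumor in FRCs, with a list mean of 10.29 to 10.52 against 9.20 to 9.86 in naive libraries. *Mcam* (3.22), *Des* (1.92) and *Tagln* (1.87) rose, 3 of 10 beside 10.3% of all genes called in FRCs. The part of these cells in the results below was not tested except where a value without a library is given. In bulk RNA, fewer cells of a type and less RNA per cell cannot be told apart.

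**Figure D1:**
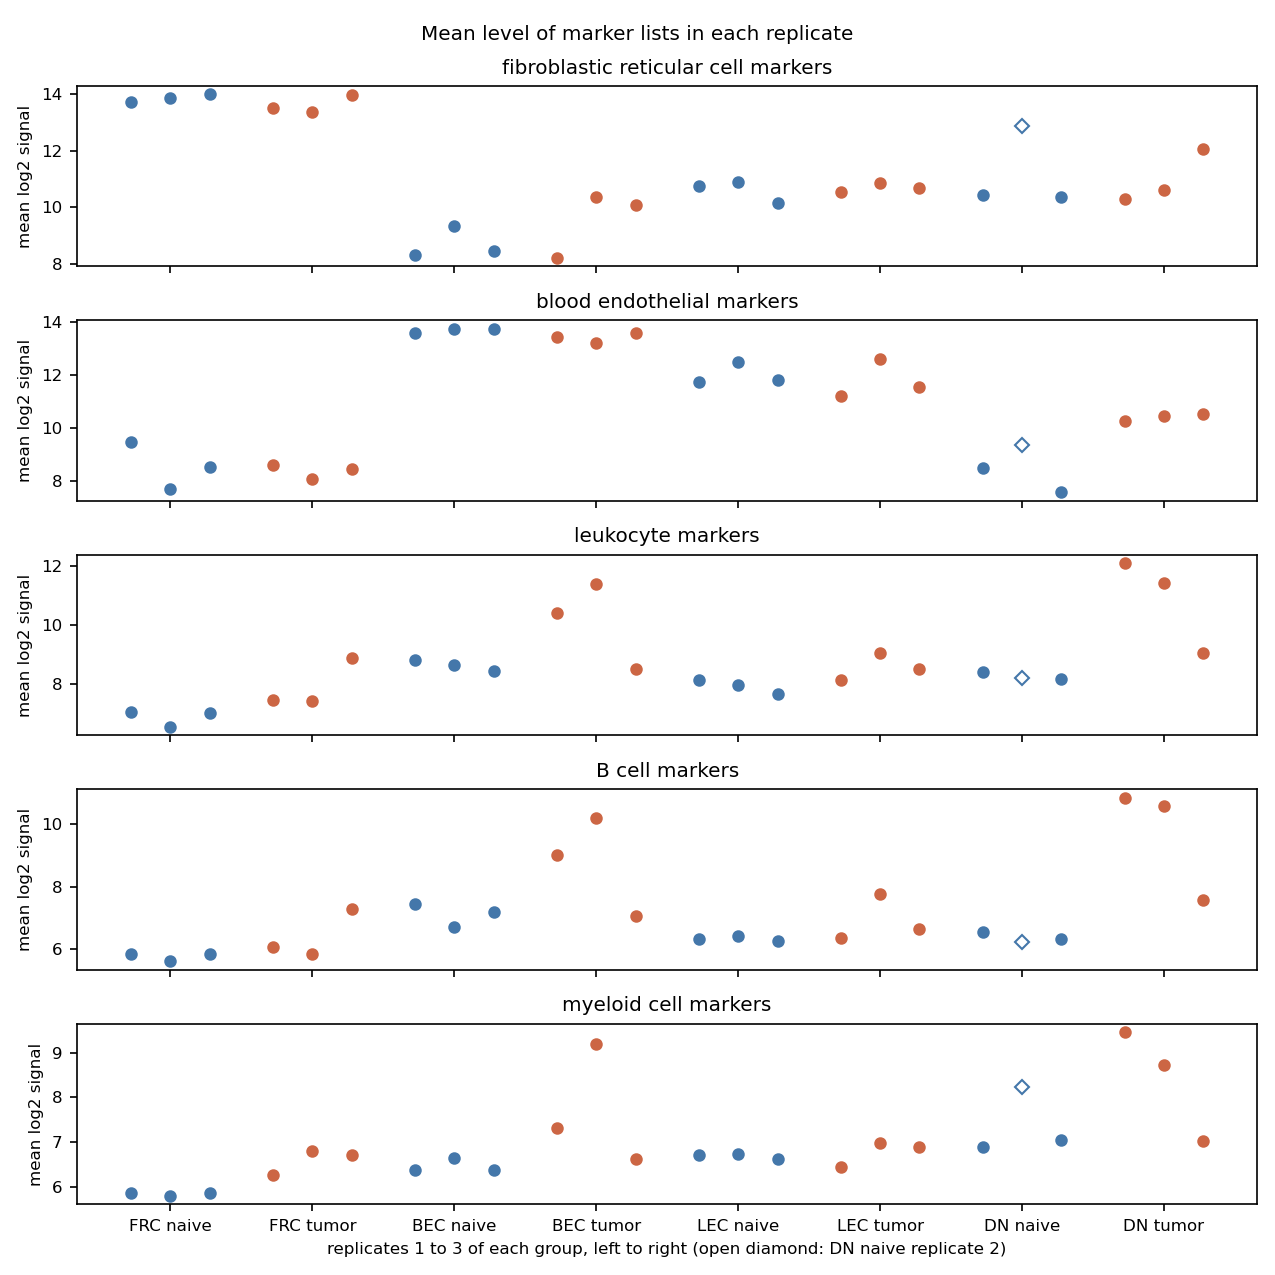
Mean log2 signal of 5 marker lists (y axis) in each replicate (x axis, 3 replicates per group, naive in blue and tumor in orange). DN naive replicate 2 (open diamond) lies at 12.87 for FRC markers, and BEC tumor and DN tumor replicates 1 and 2 lie highest for leukocyte markers, at 10.39 to 12.09.

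In naive mice the CC chemokines *Ccl7*, *Ccl11* and *Ccl2* had their highest group means in FRCs, *Cxcl9* had its highest in BECs and *Ccl20* was a LEC transcript. *Ccl11* reached 13.87, 13.84 and 13.97 in FRC naive replicates 1 to 3, 11.93, 13.75 and 12.03 in DNs, 8.85, 10.97 and 8.52 in BECs and 9.70, 9.58 and 8.88 in LECs. The FRC values did not overlap with those of any other naive group. FRCs exceeded BECs by 4.45 ± 0.59 (log2 difference ± SE, 21.8-fold) and LECs by 4.51 ± 0.59, and DNs lay above both endothelial types, by 8.71-fold and 9.10-fold (5.79-fold and 6.05-fold without DN naive replicate 2). BECs and LECs differed by 0.06 (95% interval -1.17 to 1.30).

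*Ccl7* followed a similar order, with a middle place for LECs. It measured 13.13, 13.28 and 14.19 in FRCs, 11.67, 11.76 and 11.81 in LECs, 10.99, 14.26 and 10.70 in DNs and 8.12, 8.96 and 7.86 in BECs. BECs lay below every other naive library. FRCs exceeded BECs by 5.22 ± 0.64 (37.3-fold) and LECs by 1.79 ± 0.64 (3.46-fold), and LECs exceeded BECs 10.8-fold. *Ccl2*, the neighbour of *Ccl7*, measured 10.71, 11.07 and 11.85 in FRCs, 9.40, 10.19 and 9.75 in LECs, 8.61, 12.19 and 8.52 in DNs and 8.28, 8.30 and 8.45 in BECs. FRCs exceeded BECs by 2.87 ± 0.61 (7.29-fold, adjusted p = 0.00072 in limma). Without DN naive replicate 2, *Ccl2* passed in limma as well between FRCs and LECs (adjusted p = 0.00016), BECs and LECs (0.0003) and LECs and DNs (0.0015).

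*Cxcl9* measured 13.37, 14.11 and 13.41 in BECs, 12.59, 13.75 and 12.33 in LECs, 11.76, 11.61 and 12.01 in FRCs and 9.61, 12.36 and 8.98 in DNs. BECs exceeded FRCs 3.58-fold (FRCs minus BECs -1.84 on the log2 scale, adjusted p = 0.018) and DNs by 3.31 (9.94-fold, and 20.2-fold without DN naive replicate 2), while BECs and LECs overlapped (difference 0.74, 95% interval -0.51 to 1.99). Without that library *Cxcl9* also passed between FRCs and LECs (FRCs minus LECs -1.10, adjusted p = 0.028 in limma). *Cxcl10* was highest in LECs, at 12.42, 12.85 and 12.24, followed by BECs at 11.55, 11.85 and 11.78, FRCs at 10.79, 10.81 and 11.68 and DNs at 9.83, 12.44 and 9.23. Only LECs against DNs passed the test with all libraries (2.00 ± 0.56, 4.00-fold, adjusted p = 0.0066). That fold was 7.85 without DN naive replicate 2, and *Cxcl10* passed as well between FRCs and LECs (adjusted p = 0.0028), FRCs and DNs (0.0024) and BECs and DNs (7.9e-05). *Ccl20* measured 8.45, 9.50 and 9.53 in LECs. In the other naive groups it lay between 5.00 and 6.08, and 1 FRC, 2 BEC and 1 DN replicates were above background. LECs passed against each of the 3 groups, and no fold is given because most of these replicates had only background signal or a level close to it. Its other probe was not above background in any of the 24 replicates, so the LEC pattern rests on 1 probe.

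*Cxcl1*, *Cxcl2* and *Ccl5* did not pass between any pair of naive cell types with all libraries. Without DN naive replicate 2, *Cxcl2* passed between BECs and DNs (BECs minus DNs 1.60, adjusted p = 0.036 in limma). *Cxcl1* lay at 14.74 to 15.88 over all naive libraries and *Cxcl2* at 9.40 to 13.18, in both cases with DN naive replicate 2 as the highest. The highest log2 value of any probe in the deposited values was 16.15. Whether *Cxcl1* lay near the upper limit of the scale was not tested. *Ccl5* was highest in DNs, at 8.95, 8.61 and 9.04, against 6.32 to 8.17 in the other naive libraries. The DN values did not overlap with these, and FRCs minus DNs was -2.11 on the log2 scale (adjusted p = 0.051).

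**Figure D2:**
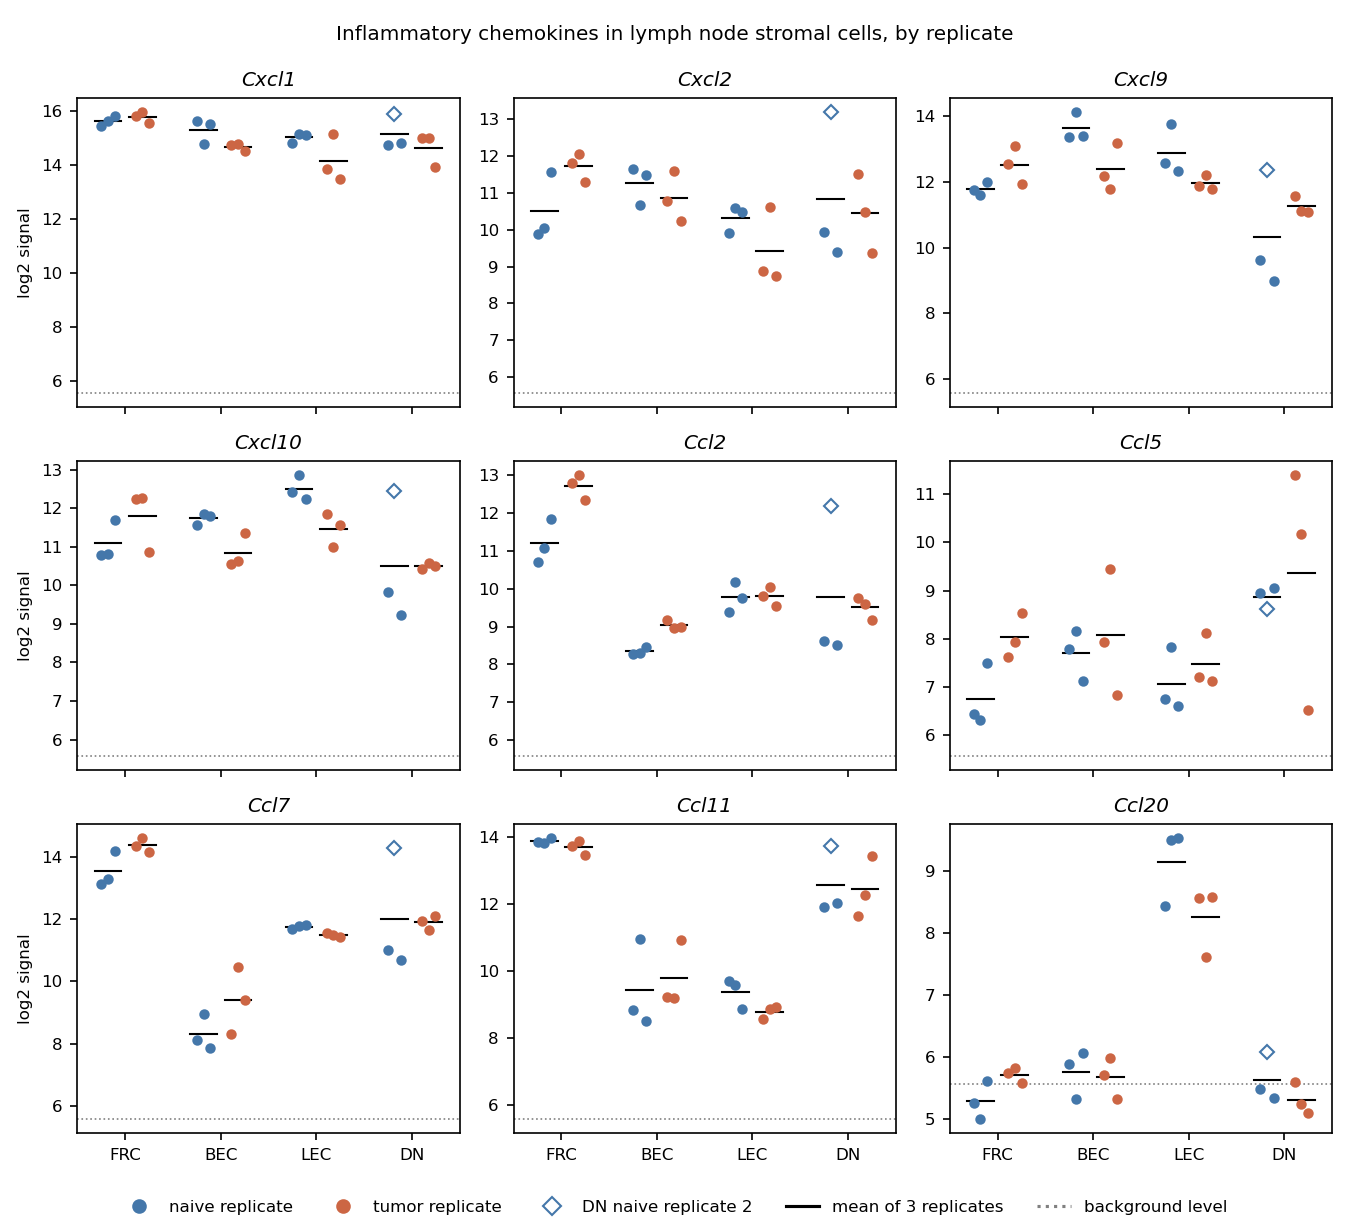
Log2 signal (y axis) of the 9 measured chemokines in each replicate by cell type and state (x axis), with bars at the mean of 3 replicates and a dotted line at the background level of 5.57. Ccl20 lies near background outside LECs, Ccl11 and Ccl7 lie highest in FRCs, and DN naive replicate 2 (open diamond) lies with the FRC values for Ccl2, Ccl7 and Ccl11.

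Counted over the family, 4 of 9 members passed between naive FRCs and BECs, beside 40.6% of all genes, and 3 between FRCs and LECs, beside 33.4%. None passed between FRCs and DNs, beside 38.2% (5 had an unadjusted p under 0.05). BECs and LECs differed in 2 members, beside 21.9%, BECs and DNs in 3, beside 51.7%, and LECs and DNs in 4, beside 44.6%. Each of these shares of the members was near or below that of all genes. Without DN naive replicate 2 the counts were 4 for FRCs and BECs (44.6% of all genes), 6 for FRCs and LECs (37.6%), 5 for FRCs and DNs (48.9%), 3 for BECs and LECs (25.9%), 5 for BECs and DNs (56.4%) and 5 for LECs and DNs (51.4%). *Ccl2*, *Ccl7*, *Ccl11*, *Cxcl9* and *Cxcl10* were then all higher in FRCs than in DNs, by 2.65, 2.69, 1.91, 2.50 and 1.56 on the log2 scale. Each cell type was read on 1 slide, so that slide and cell type cannot be told apart.

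In tumor-bearing mice, no member passed the test in any of the 4 cell types with all libraries. In FRCs this was 0 of 9 members by limma, beside 10.3% of all genes, with 1 member at an unadjusted p under 0.05. In BECs it was 0, beside 5.00% (0 unadjusted), in LECs 0, beside 0.899% (2 unadjusted), and in DNs 0, beside 7.25% (0 unadjusted). The methods' t-test after Benjamini-Hochberg adjustment also gave 0 in each cell type. Of the 9 members, 8 had a difference above 0 in FRCs (median 0.73, against -0.02 for all genes), 4 in BECs (median -0.09), 2 in LECs (median -0.86) and 3 in DNs (median -0.13, and 0.79 with 7 above 0 without DN naive replicate 2). Within a slide, naive replicates lay at the first places and tumor replicates at the last, so that place and state cannot be told apart.

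*Ccl2* showed the clearest difference in FRCs. It measured 12.80, 13.00 and 12.34 in FRC tumor replicates against 10.71, 11.07 and 11.85 in naive replicates. All tumor values lay above all naive values. The difference was 1.51 ± 0.61 (2.84-fold, 95% interval 0.24 to 2.77, adjusted p = 0.12), and without DN naive replicate 2 the SE was 0.25 and *Ccl2* passed (adjusted p = 0.00087), beside 14.8% of all genes then called in FRCs. It passed as well in a limma fit without the 6 DN libraries (adjusted p = 0.0012). It also passed with FRC tumor replicate 3 and DN naive replicate 2 left out (difference 1.69, adjusted p = 0.00067 in limma). FRC tumor replicate 3 had the highest leukocyte marker mean of the FRCs. Those of FRC tumor replicates 1 and 2 (7.45 and 7.42) also lay above the naive ones (at most 7.05). FRC tumor replicate 3 held the lowest tumor value of *Ccl2*, so leaving it out had to enlarge the difference. In BECs *Ccl2* measured 9.16, 8.96 and 8.98 in tumor against 8.28, 8.30 and 8.45 in naive replicates, again without overlap, with a difference of 0.69 that did not pass (adjusted p = 0.59, and 0.10 without DN naive replicate 2). In LECs its values overlapped (difference 0.02, 95% interval -1.25 to 1.29).

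*Ccl7*, the other Ccr2 ligand, measured 14.35, 14.58 and 14.16 in FRC tumor replicates and overlapped with the naive values (0.83 ± 0.64, adjusted p = 0.47, and 0.16 without DN naive replicate 2). In BECs it measured 8.30, 10.47 and 9.40 against 8.12, 8.96 and 7.86 (1.08 ± 0.64, adjusted p = 0.38, and 0.096 without DN naive replicate 2). The higher BEC values were those of replicates 2 and 3, in which *Pdpn* was 11.51 and 10.2 against 8.12 in replicate 1. *Ccl11* overlapped in FRCs (difference -0.19, 95% interval -1.42 to 1.05). In BECs it measured 9.24, 9.19 and 10.94 in tumor against 8.85, 10.97 and 8.52 in naive replicates. Its lowest BEC tumor value was thus in replicate 2, which had the highest *Pdpn*. Its high BEC values, in naive replicate 2 and tumor replicate 3, were in the BEC libraries with the highest pericyte and smooth muscle marker means. Those means were 9.505 and 9.399, against 8.037 to 9.003 in the other BEC libraries. The part of such cells in the *Ccl11* levels of BECs was not tested.

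*Ccl5* measured 7.62, 7.93 and 8.53 in FRC tumor replicates against 6.45, 6.32 and 7.50, with no overlap and a difference of 1.27 ± 0.83 (adjusted p = 0.37). The highest of these was replicate 3, which had the highest leukocyte marker mean of the FRCs. In DNs *Ccl5* measured 11.38, 10.16 and 6.53 in tumor replicates, and the order was that of their leukocyte marker means, 12.09, 11.41 and 9.06. In BEC tumor replicates *Ccl5* was 7.94, 9.44 and 6.83 where those means were 10.39, 11.37 and 8.504. Without DN tumor replicate 3, *Ccl5* passed in DNs (1.91, adjusted p = 0.037), but that library was picked by its own low *Ccl5* value, so this pass does not test a rise. Without DN tumor replicate 1 the difference was -0.519. *Ccl5* passed in DNs in 1 of 41 settings. The part of leukocyte RNA in the *Ccl5* levels was not tested.

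*Cxcl9* and *Cxcl10* lay lower in both endothelial types of tumor-bearing mice. *Cxcl9* measured 12.17, 11.79 and 13.19 in BEC tumor replicates against 13.37, 14.11 and 13.41, and 11.86, 12.20 and 11.79 in LEC tumor replicates against 12.59, 13.75 and 12.33. Tumor and naive values did not overlap in either cell type. The differences were -1.25 ± 0.60 in BECs (adjusted p = 0.25) and -0.94 ± 0.60 in LECs (adjusted p = 0.77), and neither passed without DN naive replicate 2 (adjusted p = 0.051 in BECs and 0.34 in LECs). *Cxcl10* measured 10.54, 10.63 and 11.34 in BEC tumor replicates and 11.84, 11.00 and 11.55 in LEC tumor replicates, below all naive values of the same cell type, with differences of -0.89 ± 0.56 (adjusted p = 0.40, and 0.12 without DN naive replicate 2) and -1.04 ± 0.56 (0.65 and 0.19).

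In FRCs both differences were above 0 and did not pass. *Cxcl9* measured 12.55, 13.08 and 11.93 in FRC tumor replicates (0.73 ± 0.60, adjusted p = 0.50), and *Cxcl10* 12.25, 12.27 and 10.86 (0.70 ± 0.56), with the third replicate of each within the naive range. That replicate had the highest leukocyte marker mean of the FRCs, while those of the other FRC tumor replicates also lay above the naive range. With it and DN naive replicate 2 left out, *Cxcl10* passed in limma in FRCs (1.17, adjusted p = 0.015) and *Cxcl9* in BECs (-1.25, adjusted p = 0.044). FRC tumor replicate 3 held the lowest FRC tumor value of both genes, so leaving it out had to enlarge their FRC differences. This setting was chosen after seeing the data, and the part of leukocyte RNA was not tested. In DNs *Cxcl9* measured 11.56, 11.11 and 11.09 against 9.61, 12.36 and 8.98, where the naive value above all tumor values was that of replicate 2. *Cxcl10* had a DN difference of 0.00 with all libraries. Without DN naive replicate 2 the DN difference of *Cxcl9* was 1.96 ± 0.42 (3.88-fold, adjusted p = 0.0055), that of *Cxcl10* was 0.97 ± 0.38 (adjusted p = 0.093), and *Ccl2* passed (0.95 ± 0.28, adjusted p = 0.033), 2 of 9 members beside 14.6% of all genes. With all libraries the DN difference of *Ccl2* was -0.26, so that its direction rests on that library. Without it, no member passed in BECs, beside 7.65% of all genes (4 had an unadjusted p under 0.05), or in LECs, beside 1.11% (4 unadjusted).

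The difference between cell types was tested directly. Over the 4 cell types, 0 of 9 members passed the F test with all libraries, beside 1.26% of all genes (1 unadjusted, *Cxcl9*, adjusted p = 0.31). Without DN naive replicate 2, *Cxcl9* (adjusted p = 0.0050) and *Cxcl10* (adjusted p = 0.025) passed, beside 5.55%. The change of FRCs minus that of BECs was 1.98 ± 0.84 for *Cxcl9* (adjusted p = 0.37) and 1.59 ± 0.79 for *Cxcl10* (adjusted p = 0.47). No member passed in that comparison, beside 0.906% of all genes, nor without DN naive replicate 2, beside 2.28% (*Cxcl9*, adjusted p = 0.062). The change of FRCs minus that of LECs passed for no member, beside 0.607%, and for *Ccl2* without DN naive replicate 2 (1.485 ± 0.36, adjusted p = 0.041), beside 1.88%.

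*Cxcl1* and *Cxcl2*, the neutrophil chemokines, showed no passing difference. *Cxcl2* measured 11.80, 12.06 and 11.29 in FRC tumor against 9.88, 10.04 and 11.57 in naive replicates (1.22 ± 0.77, adjusted p = 0.35) and 8.87, 10.62 and 8.76 in LEC tumor against 9.91, 10.59 and 10.47 (-0.91 ± 0.77). *Cxcl1* in LECs lay at 13.86, 15.15 and 13.50 against 14.83, 15.15 and 15.12 (-0.86 ± 0.37, adjusted p = 0.49), and in both genes it was LEC tumor replicate 2 that lay within or above the naive range, the LEC library with the highest leukocyte and B cell marker means. *Ccl20* in LECs measured 8.56, 7.61 and 8.59 against 8.45, 9.50 and 9.53 (-0.90 ± 0.31, adjusted p = 0.28).

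**Figure D3:**
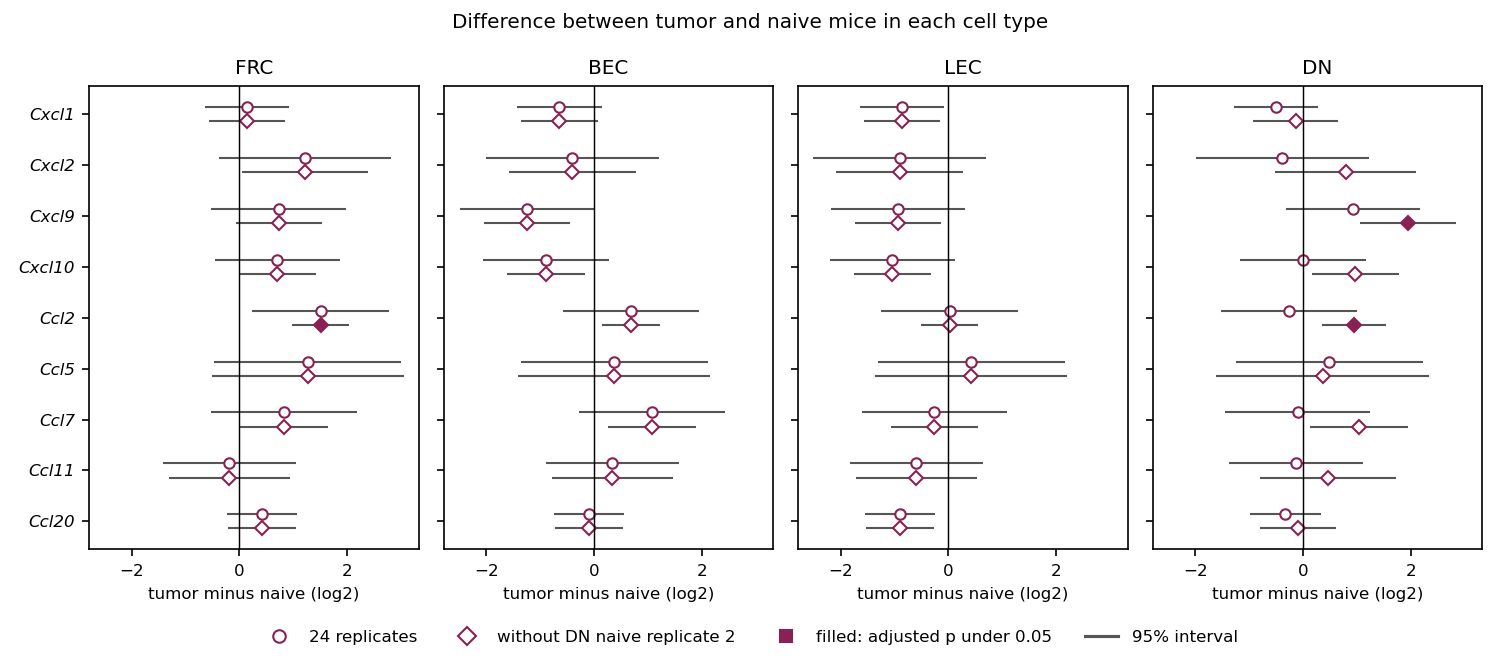
Difference between tumor and naive mice (x axis, log2, with 95% intervals) for the 9 chemokines in each cell type, from all 24 replicates (circles) and without DN naive replicate 2 (diamonds), filled where the adjusted p was under 0.05. Only Ccl2 in FRCs and Ccl2 and Cxcl9 in DNs are filled, all of them without that replicate.

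Overlap of the replicates was counted as well. In FRCs 2 of 9 members did not overlap, both higher in tumor, beside 39.1% of all genes. In BECs it was 4 (*Ccl2* higher, and *Cxcl1*, *Cxcl9* and *Cxcl10* lower), beside 25.7%, in LECs 3 (*Cxcl9*, *Cxcl10* and *Ccl7*, all lower), beside 20.4%, and in DNs 0, beside 15.9%. The exact permutation p (2-sided) of each such member was 0.1, the smallest that 3 replicates against 3 allow.

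The measurements of a replicate were repeated within the array. The 2 strips of a replicate differed by a median of 0.0692 (*Ccl2*) to 0.21 (*Ccl20*) on the log2 scale, with largest differences of 1.96 for *Cxcl1* and 1.16 for *Ccl20* and at most 0.721 for the other members. A member's probe was read by 8 to 39 beads per strip. Of the 5 members with another named probe, *Ccl20* had its other probe at background in every replicate, and the rest could be compared in tumor change between probes. The other *Cxcl2* probe gave 1.44 in FRCs and -1.18 in LECs, the other *Cxcl10* probe 1.03 in FRCs, -1.15 in BECs and -0.79 in LECs, and the other *Ccl7* probe 0.87 in FRCs and 0.96 in BECs, each of the same sign as the probe used. In DNs the *Cxcl10* probes gave 0.00 and -0.51. The *Ccl11* probes differed in sign in FRCs (-0.19 and 0.13), and *Cxcl1*, *Cxcl9*, *Ccl2* and *Ccl5* rest on 1 probe each.

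Replicates of a group that were high in one member were often high in another. Without DN naive replicate 2, the 3 pairs with the highest correlation of their deviations from the group means were *Cxcl1* and *Cxcl2* (0.835), *Cxcl2* and *Ccl2* (0.776) and *Cxcl9* and *Cxcl10* (0.771). These are descriptions, since replicates of a cell type share a slide. Across all 24 replicates, the genes most like *Cxcl9* were *Ifi47*, an interferon-induced GTPase (r = 0.911), and *Rftn1* (0.889), and those most like *Cxcl10* were *Eif4e3* (0.896) and *Vcam1*, an adhesion molecule (0.882). *Ccl11* was most like *Nnmt* and *Rarres2* (both 0.978), *Ccl7* like *Epdr1* and *Larp6* (0.972 and 0.968), *Ccl2* like *Gbx2* and *Shisa3* (both 0.946) and *Ccl20* like *Klrb1f* and *Coch* (0.968 and 0.965). *Ccl5* was most like *Rgs1* and *H2-Eb2* (0.885 and 0.881), *Cxcl1* like *Slc19a2* and *Gtf3c4* (0.861 and 0.846), and *Cxcl2* like *Slc2a3* and *Poldip3* (0.833 and 0.824).

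Of 15 other inflammatory chemokines tested, 3 rose in FRCs, beside 10.3% of all genes called there. These were *Pf4* (3.14 ± 0.47, adjusted p = 0.00041), *Ccl9* (2.60 ± 0.76) and *Cxcl16* (1.53 ± 0.44), and the median of the list was -0.04. *Pf4* is a platelet and myeloid chemokine. Of 10 myeloid markers tested, 2 rose in FRCs, *Cd14* and *Csf1r* (1.80 and 0.94), beside 10.3% of all genes. All 10 had a difference above 0 there (median 0.71, against -0.02 for all genes). Their mean was 6.263 to 6.805 in FRC tumor libraries and 5.802 to 5.867 in FRC naive libraries, without overlap. *S100a8* and *S100a9* had FRC differences of 1.27 and 1.23 that did not pass (adjusted p = 0.54 for each in limma). The part of myeloid RNA in the *Pf4* level was not tested. *Ccl17* rose in DNs (0.80 ± 0.23), 1 of 15 beside 7.25% of all genes. None of the list passed in BECs or LECs. In the fit without DN naive replicate 2, *Ccl9* passed in BECs (2.09), 1 of 15 beside 7.65% of all genes. In DNs *Ccl8* (1.62) and *Ccl17* (0.825) then rose and *Ccl25* (-0.85) fell, of 15 tested, beside 14.6% of all genes. *Ackr2*, 1 of 5 atypical receptors, rose in DNs as well (1.85). *Ccl8*, *Ccl25*, *Ackr2* and the pass of *Ccl9* in BECs were named after their values were seen. Of the members' receptors only *Cxcr1*, *Cxcr3* and *Ccr6* could be tested and none passed, and none of 5 atypical receptors, which bind chemokines without classical signalling, passed with all libraries.

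Of 16 NF-kappaB targets and regulators, 3 rose in FRCs, beside 10.3% of all genes called there. These were *Nfkb2* (1.54 ± 0.36), *Relb* (0.96 ± 0.29) and *Sod2* (0.63 ± 0.15), and the list median was 0.49. None passed in the other cell types, where the medians were -0.45 in BECs, -0.35 in LECs and -0.12 in DNs. With DN naive replicate 2 left out, 6 rose in FRCs, beside 14.8% of all genes. In DNs 3 then rose (*Icam1*, *Tnfaip2* and *Vcam1*, named after their values were seen), beside 14.6%. The DN median was then 0.43, so that its sign turned with that library. Of 16 receptors for inducing signals, 2 rose in FRCs, near the 10.3% of all genes called there. These were *Il1r1* (1.32 ± 0.40) and *Tnfrsf1b* (1.37 ± 0.43), and the list median was 0.05. Of 9 genes that degrade or present chemokines, with a median of -0.17 in FRCs, 2 rose there, beside 10.3% of all genes, and 1 in BECs, beside 5.00%. *Mmp9*, a protease that can trim chemokines, rose in FRCs (3.35 ± 0.68) and *Sdc3*, a syndecan of the cell surface, as well (1.07 ± 0.27), while *Dpp4*, which inactivates several chemokines, rose in BECs (2.29 ± 0.64).

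Immediate early genes, which respond within minutes to handling and to digestion of the tissue, had medians below 0 in all 4 cell types. Of 14 tested, 3 fell in FRCs (*Fosb* by 1.59, *Atf3* by 1.02 and *Fos* by 0.71), 2 in BECs (*Fosb* and *Egr2*) and 1 in DNs (*Atf3*, which did not pass without DN naive replicate 2), and the list medians were -0.62, -0.53, -0.44 and -0.58 in FRCs, BECs, LECs and DNs. The shares of all genes called were 10.3% in FRCs, 5.00% in BECs and 7.25% in DNs. Cells had been digested for about 50 min at 37 °C before the sort. The part of this response in the levels of *Cxcl1*, *Cxcl2* and the other members was not tested.

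**Figure D4:**
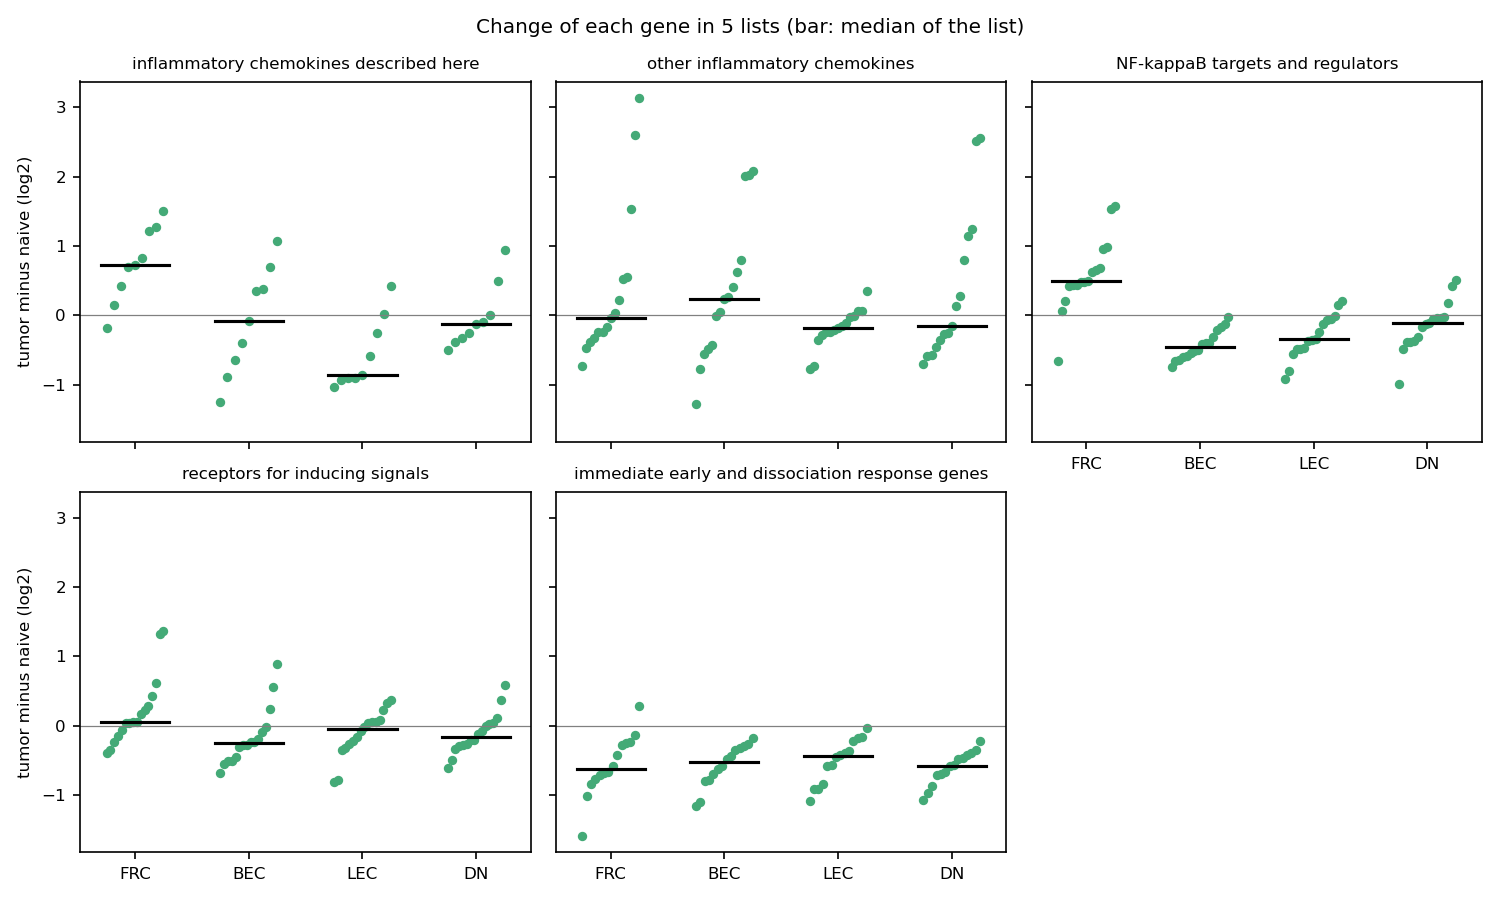
Difference between tumor and naive mice (y axis, log2) of each gene in 5 lists by cell type (x axis), with a bar at the median of the list. The members have medians of 0.73 in FRCs and -0.86 in LECs, NF-kappaB genes 0.49 in FRCs and -0.45 in BECs, and immediate early genes have medians below 0 in all 4 cell types.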

How the data were processed

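Sorted LN stromal cells (24 replicates on 48 strips) were profiled on Illumina bead arrays. The deposited value table holds log2 values per probe as the authors gave them, and the deposited bead files hold the intensity of each bead. Background correction and summarization by the authors are not given in the sources used here. The log2 values were quantile normalized over strips (limma 3.58.1, R 4.3.3) and each replicate's 2 strips were averaged. Of 34885 probes with 1 gene symbol in the platform annotation, 21784 passed a filter on the background level (mode 4.97 plus 3 robust SDs of 0.2), and the brightest probe stood for each of 13353 genes.

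A limma fit of 8 group means gave all comparisons, with p-values adjusted by Benjamini-Hochberg over all genes at 0.05. Labels do not say whether replicates came from separate mice, so p-values measure the spread between these samples. The members and gene lists were chosen with earlier results of these data known, and 1 list is not reported here. The text names every member, up to 4 genes per list by smallest adjusted p, genes that define cell types, and the 2 genes most like each member. The comparisons of FRCs with BECs and LECs in tumor change, and the settings that leave out 2 libraries or all DN libraries, were chosen after seeing the data. Same-numbered replicates correlated in their deviations at 0.145 to 0.225 in LECs, 0.026 to 0.248 in FRCs, -0.217 to 0.042 in BECs and -0.194 to -0.022 in DNs, so that every pair was over 0.1 in LECs and not in the others. Alternatives covered normalization, background correction, filter, probe choice, strips, weights, prior, pairing, the methods' t-test and left-out replicates.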

Additional observations from a re-analysis of the deposited data

Results flagged for a closer look

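Some members moved in opposite directions in 2 cell types, with every tumor replicate on one side of the naive mean in one cell type and on the other side in the other. For *Cxcl9* the difference of the tumor changes was 1.975 between FRCs and BECs and 1.667 between FRCs and LECs, and neither passed with all libraries. It was -2.183 between BECs and DNs and -1.874 between LECs and DNs, and these single differences were not tested. For *Ccl2* it was 1.766 between FRCs and DNs and 0.95 between BECs and DNs, which were not tested singly and which rest on DN naive replicate 2, without which the DN difference was above 0. For *Ccl7* it was 1.088 between FRCs and LECs, which did not pass (adjusted p = 0.75). For *Ccl20* it was 1.325 between FRCs and LECs (adjusted p = 0.21) and 0.745 between FRCs and DNs (not tested singly), where most FRC naive and DN libraries lay below the background level.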

How the results depend on the processing

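Of the single member differences under other settings, 1401 kept their direction and their side of the threshold, 25 passed under the alternative and 41 reversed. Of those reversed, *Ccl2* in DNs passed at 0.948 without DN naive replicate 2, also with FRC tumor 3 or BEC tumor 2 left out, and *Ccl7* in DNs passed at 1.042 without DN naive 2 and BEC tumor 2. The others did not pass. With DN naive 2 and FRC tumor 3 or BEC tumor 2 left out, DN values were 0.791 for *Cxcl2* and 0.4612 for *Ccl11*, *Ccl7* was 1.042 with FRC tumor 3 left out, and *Ccl5* in BECs was -0.3111 with BEC tumor 2 left out. Array weights gave 0.0361 for *Cxcl1*, 0.69 for *Cxcl2*, 0.746 for *Ccl2*, 0.6446 for *Ccl7* and 0.113 for *Ccl11* in DNs and -0.0542 for *Ccl2* in LECs. The bead files without and with background correction gave -0.0056 and -0.0059 for *Ccl2* in LECs and -0.109 and -0.0988 for *Cxcl10* in DNs, the first strip alone gave -0.0474 and -0.0395 for these and 0.0326 for *Ccl20* in BECs, and the mean of all kept probes gave -0.253 for *Cxcl10* in DNs. Leaving out 1 replicate at a time, the reversed values ranged in DNs from -1.101 to 0.791 (*Cxcl2*), -0.6299 to 0.9738 (*Cxcl10*), -0.8865 to 0.9481 (*Ccl2*), -0.5194 to 1.906 (*Ccl5*), -0.7411 to 1.042 (*Ccl7*) and -0.6204 to 0.4612 (*Ccl11*), in BECs from -0.3111 to 0.9941 (*Ccl5*), -0.2322 to 1.105 (*Ccl11*) and -0.3052 to 0.0865 (*Ccl20*), and in LECs from -0.1692 to 0.2257 (*Ccl2*). Leaving out each replicate in turn gave 0 to 1 members called in FRCs, 0 to 0 in BECs and in LECs, 0 to 2 in DNs, 3 to 4 for naive FRCs and BECs, 2 to 6 for FRCs and LECs, 0 to 5 for FRCs and DNs, 2 to 3 for BECs and LECs, 3 to 5 for BECs and DNs, 3 to 5 for LECs and DNs, 0 to 2 in the F test, 0 to 0 for the change in FRCs minus BECs and 0 to 1 for FRCs minus LECs. Array weights, whose estimation stopped before convergence, called 6 members in FRCs, 4 in BECs, 1 in LECs, 1 in DNs, 7 for naive FRCs and BECs, 7 for FRCs and LECs, 6 for FRCs and DNs, 4 for BECs and LECs, 5 for BECs and DNs, 6 in the F test, and 4 and 6 for the changes in FRCs minus BECs and minus LECs. Fits of a cell type alone called 2 members in FRCs, and of naive replicates alone 1 for FRCs and DNs. The methods' t-test called 5 for FRCs and LECs, 0 for BECs and DNs and 2 for LECs and DNs. For FRCs and DNs, median centring called 3, and both bead file summaries, the stricter filter, either strip alone and the trended prior called 1 each. Without DN naive 2 and FRC tumor 3 there were 2 called in FRCs, 1 in BECs, 3 in DNs, 6 for FRCs and LECs, 5 for FRCs and DNs, 4 for BECs and LECs, 5 for BECs and DNs, 3 in the F test and 2 for each change in FRCs against BECs and LECs. Without DN naive 2 and BEC tumor 2 there were 1 in FRCs, 3 in DNs, 6 for FRCs and LECs, 6 for FRCs and DNs, 5 for BECs and DNs, 2 in the F test and 1 for FRCs minus LECs. Without the 6 DN libraries there were 1 in FRCs, 6 for FRCs and LECs and 1 for FRCs minus LECs. The cause of these shifts was not tested. The share of all genes called is given only for the fit with all libraries and the fit without DN naive replicate 2. The counts under other settings have no such share beside them and are not read as results about the members. With the replicate block, 0 members were called in each cell type, in the F test and in both differences of FRCs, as without it. It was not run between naive cell types. The number of arrays limits the precision.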
